A study of Mus musculus with 4 samples.

Results

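Brakes on the cell cycle and genes switched on by p53 were followed in colony-forming adherent cells of the mouse spleen. The group held 10 genes, taken from a list of symbols: the CIP/KIP inhibitors Cdkn1a, Cdkn1b and Cdkn1c, the INK4 inhibitors Cdkn2a, Cdkn2b and Cdkn2c, and the p53 targets Phlda3, Mdm2, Ccng1 and Bax. A probe set belonged to the group when its symbol in the deposited tables was exactly one of these, which gave 15 probe sets of 45037, for 10 genes of 19761 with a single symbol. Where a gene had several probe sets, the one with the highest mean over the arrays stood for it, and the others are given beside it.

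Colony cells (SACCs, growing in tight heaps) were set against monolayer cells (controls), both grown from cut pieces of C57BL/6J spleen. SACC replicate 1 was kept in a serum-free medium made for embryonic stem cells (ES medium). SACC replicate 2 stayed in plain medium. Both control replicates were kept in plain medium. Each SACC array has its own control array named as its reference in the labels, which gives an ES pair of the replicates numbered 1 and a plain pair of those numbered 2. In the ES pair the medium therefore differs along with the growth form. No genotype beyond the strain is given. The protocol divides a single spleen among wells, and since separate animals or cultures are not stated, p-values measure only the spread between these arrays, which may be technical.

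Progress from G1 into S phase is driven by cyclin-dependent kinases (CDKs) bound to cyclins. INK4 proteins bind CDK4 and CDK6 and keep them from D-type cyclins, and CIP/KIP proteins bind cyclin-CDK complexes more broadly, including those of CDK2. The transcription factor p53 induces Cdkn1a after DNA damage and other stresses, along with genes of apoptosis such as Bax, and it induces Mdm2, whose product marks p53 for destruction. In cultured fibroblasts transcripts of several of these genes accumulate as the cells stop dividing.

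Values are log2 expression per probe set, and a ratio is SACC minus control within a pair, so that 1 is a 2-fold higher level in SACCs. Array medians were 4.52 (SACC) and 4.59 (control) in the ES pair, and 4.35 (SACC) and 4.34 (control) in the plain pair. By their brightest probe sets all 10 genes lay above the median of every array. All 10 macrophage markers were lower in SACCs of both pairs, and 6 of them fell in limma's test over both pairs, as 1.04% of all genes did. The receptor Csf1r stood at 11.8 and 11.09 on the SACC arrays, against 13.66 and 12.73 on the control arrays. The summed linear level of the 10 markers was 11622 and 15299 on the SACC arrays, against 42267 and 45924 on the control arrays, and none lay below the array medians throughout. All 9 fibroblast markers were higher in both pairs, and 2 of them rose, as 0.936% of all genes did. With arrays centred, or without the pair term, no probe set passed the test, so these calls are lost. The collagen gene Col1a1 stood at 12.77 and 12.01 on the SACC arrays, against 10.45 and 9.73 on the control arrays. The list had summed levels of 61634 and 47924 on the SACC arrays, against 28142 and 15185 on the control arrays. The part of these cell type differences in the ratios of the 10 genes was not tested, and in bulk RNA more cells of a type and more RNA per cell cannot be told apart.

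Across the 10 genes, Cdkn2b and Phlda3 had the highest mean ratios (1.34 and 0.92), Cdkn1a and Ccng1 followed (0.57 and 0.48), and Mdm2 and Bax were nearest to 0 (0.12 and -0.08). In limma, fitted to group and pair and adjusted by Benjamini-Hochberg over the whole table, none of the 10 passed an adjusted p of 0.05, and the smallest adjusted p was 0.0694. Over all probe sets the test called 1.3%, 0.642% higher and 0.662% lower. At an unadjusted p under 0.05 in limma, 4 of the 10 were higher in SACCs (Cdkn2b, Phlda3, Cdkn1a and Ccng1) and 0 lower, where 12.1% and 8.78% of all genes were. Both pairs had ratios above 0 for 5 of the 10 genes, against 30.4% of all genes, while 4 had opposite signs, against 31.4%, and 1 was lower in both, against 34.7%. With each array centred on its median these counts became 6, 4 and 0. Cdkn1b then left the genes of opposite signs and Cdkn2c joined them. With averaged probe sets the counts were 6, 3 and 1, with Mdm2 at 0.13 and 0.04. Past 2-fold higher were 1 of the 10 in the ES pair (6.51% of all genes) and 2 in the plain pair (6.01%), and 0 were that much lower (4.08% and 5.19%). The median ratio of the 10 genes was 0.3 (ES pair) and 0.6 (plain pair), beside -0.01 and -0.02 over all genes.

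**Figure D1:**
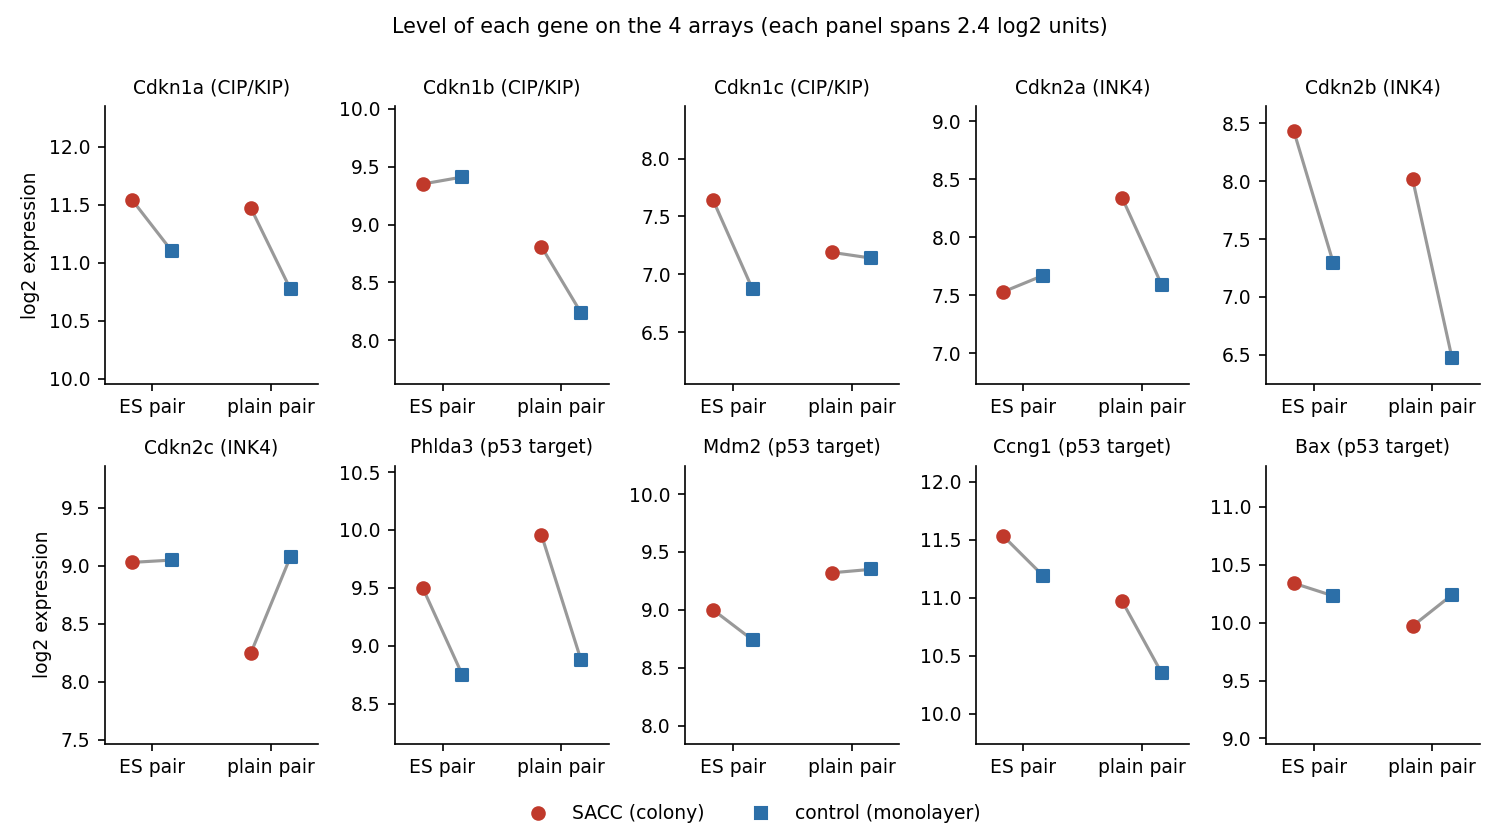
Log2 expression of the 10 genes on the 4 arrays, with SACC (circles) left of its control (squares) in each pair and a line joining the 2 arrays of a pair. Each point is 1 array. Cdkn2b, Phlda3, Cdkn1a and Ccng1 slope down to the control in both pairs, while Cdkn2c is level in the ES pair (9.03 and 9.05) and lower in SACCs of the plain pair (8.25 and 9.08).

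Among the INK4 genes, Cdkn2b had the highest ratio in each pair. Cdkn2b encodes an inhibitor of CDK4 and CDK6 that is known as a target of TGF-beta signalling. Its level was 8.43 and 8.02 on the SACC arrays, against 7.29 and 6.47 on the control arrays. Both SACC arrays thus lay above both controls, which 4 of the 10 genes and 18.3% of all genes showed, across tables that appear normalized separately. The ratios were 1.14 (ES pair) and 1.55 (plain pair), a 2.2-fold and a 2.93-fold higher level. The mean ratio was 1.34 ± 0.19 (SE, n = 2 pairs), with a limma adjusted p of 0.0694. It was the only one of the 10 past 2-fold in both pairs, where 3.38% of all genes were that much higher. Its adjusted p dropped below 0.05 when dim probe sets were left out (0.0478), with quantile normalization over the 4 arrays (0.0365), with robust limma (0.0161) or with 1 averaged value per gene (0.0404). It stayed above 0.05 with arrays centred (0.0763), with limma's trend option (0.0688), without the pair term (0.401) and, without that term, with any 1 array left out (0.326 to 0.998).

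Cdkn2a, the next protein-coding gene beside Cdkn2b in the RefSeq gene table, did not follow it in the ES pair. Cdkn2a has a pair of promoters that give the INK4a inhibitor and the ARF protein, which binds Mdm2, and its single probe set was not assigned to either transcript. The level was 7.53 and 8.34 on the SACC arrays, against 7.67 and 7.59 on the control arrays. The SACC array in plain medium was thus the only high one. The ratios were -0.14 (ES pair) and 0.75 (plain pair), with a mean of 0.3 ± 0.27 (SE, n = 2 pairs; limma adjusted p = 0.649).

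Cdkn2c, another INK4 inhibitor of CDK4 and CDK6, had a mean ratio below 0. Its level was 9.03 and 8.25 on the SACC arrays, against 9.05 and 9.08 on the control arrays. The low array was the SACC array in plain medium, and the other 3 lay within 0.05 of each other. The ratio of -0.83 in the plain pair stood beside -0.02 in the ES pair, which turned to 0.05 with the arrays centred, and the mean was -0.42 ± 0.26 (SE, n = 2 pairs; limma adjusted p = 0.505). The fourth INK4 gene, Cdkn2d, is not one of the 10 and had ratios of 0.16 and -0.51.

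**Figure D2:**
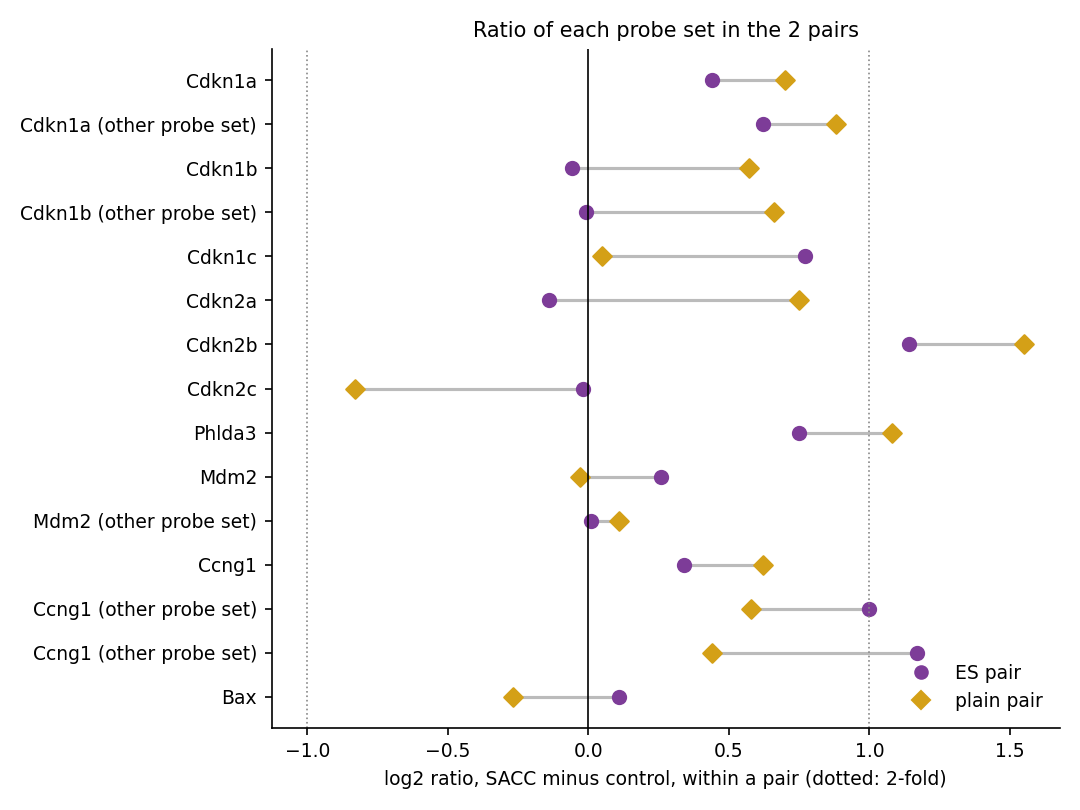
Log2 ratio of SACC minus control for the 15 probe sets of the 10 genes, with circles for the ES pair and diamonds for the plain pair, with dotted lines at 2-fold. Each ratio rests on 1 array per group. Cdkn2b lies past 2-fold in both pairs (1.14 and 1.55), and the ratios of Cdkn1b, Cdkn2a and Cdkn2c differ more between the pairs than those of Cdkn1a or Phlda3.

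Of the CIP/KIP genes, Cdkn1a, the classic p53-induced inhibitor, was higher in both pairs. It stood at 11.54 and 11.47 on the SACC arrays, against 11.1 and 10.77 on the control arrays, with both SACC arrays above both controls. The ratios of 0.44 and 0.7 gave a mean of 0.57 ± 0.17 (SE, n = 2 pairs; limma adjusted p = 0.227), a 1.48-fold higher level. A further probe set of Cdkn1a had ratios of 0.62 and 0.88 in the same order of pairs. Its levels were 10.12 and 11.01 in SACCs, against 9.5 and 10.13 in controls, so there the ranges overlapped.

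Cdkn1b, an inhibitor that quiescent cells hold at high protein levels, was higher in SACCs of the plain pair by both of its probe sets. The brighter one stood at 9.35 and 8.81 on the SACC arrays, against 9.41 and 8.24 on the control arrays. The 2 arrays of the ES pair were thus alike and both above those of the plain pair. Its ratios were -0.06 and 0.57, the first of which became 0.01 with the arrays centred, and the mean was 0.25 ± 0.22 (SE, n = 2 pairs; limma adjusted p = 0.64). The dimmer probe set had ratios of -0.01 and 0.66. The second came from levels of 4.29 (SACC) and 3.63 (control), both below the medians of their arrays.

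Cdkn1c, an imprinted inhibitor, showed the reverse order of the pairs. Its level was 7.64 and 7.19 on the SACC arrays, against 6.87 and 7.14 on the control arrays. The ratio of 0.77 in the ES pair stood beside 0.05 in the plain pair, with a mean of 0.41 ± 0.24 (SE, n = 2 pairs; limma adjusted p = 0.491). Both SACC arrays lay above both controls, by a margin of 0.05 at the closest.

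The difference between the pairs, ES minus plain, was -0.89 for Cdkn2a, -0.63 for Cdkn1b, 0.72 for Cdkn1c and 0.81 for Cdkn2c, and it was -0.26, -0.33 and -0.41 for Cdkn1a, Phlda3 and Cdkn2b. With 1 ratio per pair these differences have no test. On the same arrays the proliferation markers had ratios of opposite sign in the pairs. Of 15 such genes, 14 were higher in SACCs of the ES pair and lower in those of the plain pair, as 3256 of all 19761 genes were. Another 1 was lower in both, against 34.7% of all genes. None passed the test (smallest adjusted p in limma 0.347), where 1.97% of all genes did. In limma 0 had an unadjusted p under 0.05, beside 12.1% higher and 8.78% lower of all genes. Below the medians of all arrays lay 1 of the 15, and its 3 other probe sets had a mean of the other sign. The median ratio of the 15 was 1.04 (ES pair) and -1.02 (plain pair). Mki67, the common marker of dividing cells, stood at 8.85 and 8 on the SACC arrays, against 8.11 and 9.21 on the control arrays. Cdkn2c and Cdkn1c thus had their higher ratio in the pair with the higher proliferation ratios, and Cdkn2a and Cdkn1b in the other pair. The part of proliferation in these differences was not tested.

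**Figure D3:**
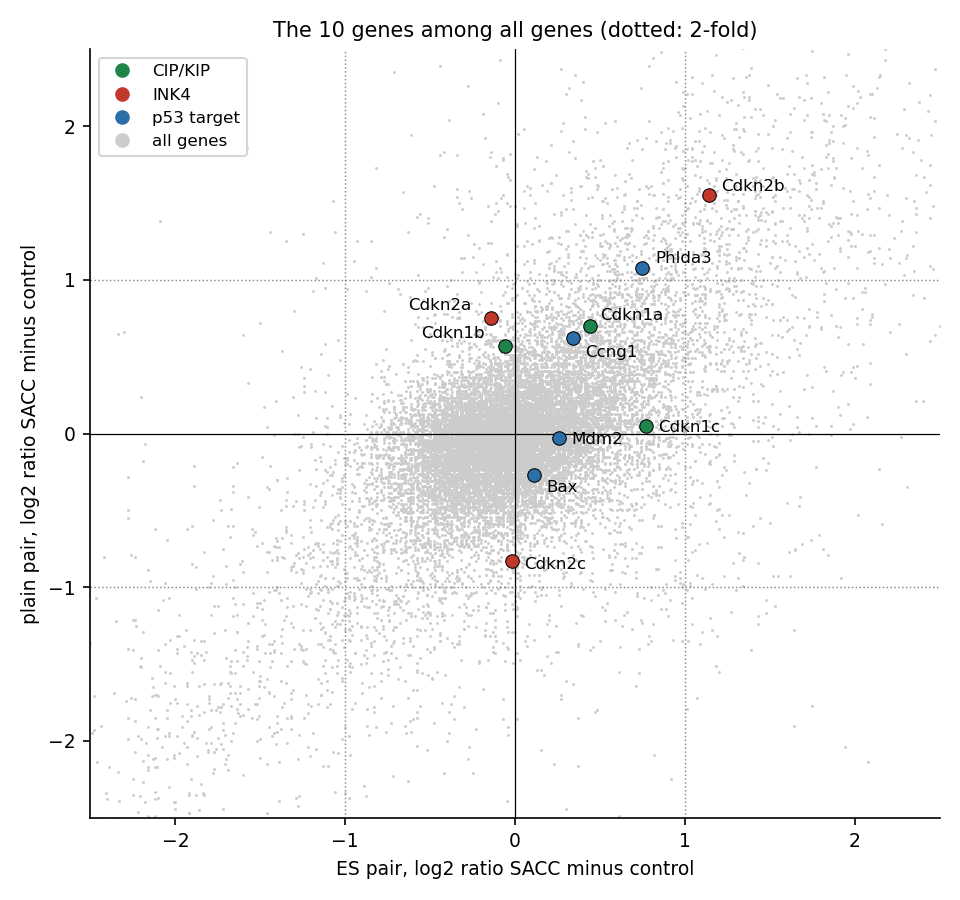
Log2 ratio of SACC minus control, ES pair (horizontal) against plain pair (vertical), for the 10 genes, coloured by role, and for all genes (grey); dotted lines mark 2-fold, and 333 genes beyond 2.5 on either axis are not drawn. Cdkn2b and Phlda3 lie to the upper right, and Cdkn2a, Cdkn1b and Cdkn2c lie near 0 on the horizontal axis.

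By their brightest probe sets, 2 of the 4 p53 targets were higher in both pairs and 2 were not, Mdm2 by -0.03 in the plain pair. Phlda3, which competes with the kinase Akt for membrane lipids, stood at 9.5 and 9.96 on the SACC arrays, against 8.75 and 8.88 on the control arrays. Both SACC arrays were above both controls. Its ratios of 0.75 and 1.08 gave a mean of 0.92 ± 0.18 (SE, n = 2 pairs; limma adjusted p = 0.116), a 1.89-fold higher level. Under the alternatives that kept the pair term its adjusted p ran from 0.0499, with robust limma, to 0.116, with arrays centred. It was 0.452 without that term, and 0.674 to 0.999 when 1 array was also left out.

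Ccng1, cyclin G1, which recruits a phosphatase to Mdm2, was higher in both pairs by all 3 of its probe sets. The brightest stood at 11.53 and 10.97 on the SACC arrays, against 11.19 and 10.35 on the control arrays. Each SACC array lay above its own control, although the ranges overlapped. Its ratios were 0.34 and 0.62, with a mean of 0.48 ± 0.17 (SE, n = 2 pairs; limma adjusted p = 0.293). The other probe sets gave 1 and 1.17 in the ES pair and 0.58 and 0.44 in the plain pair, so the probe sets disagreed on which pair had the larger ratio.

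Mdm2, the ubiquitin ligase of p53 and itself its target, stood at 9 and 9.32 on the SACC arrays, against 8.74 and 9.35 on the control arrays. The ratios of 0.26 and -0.03 had a mean of 0.12 ± 0.17 (SE, n = 2 pairs; limma adjusted p = 0.79). A dimmer probe set had ratios of 0.01 and 0.11.

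Bax, which permeabilises mitochondria in apoptosis, stood at 10.34 and 9.97 on the SACC arrays, against 10.23 and 10.24 on the control arrays. Its ratios were 0.11 and -0.27 and its mean -0.08 ± 0.18 (SE, n = 2 pairs; limma adjusted p = 0.868). For both genes the mean ratio was smaller than its standard error.

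Windows of 250 bases just before a gene's start were searched for the p53 half-site, a degenerate motif of 10 bases. The motif reads the same on both strands, and p53 binds a pair of half-sites. Only exact matches to the motif were counted, so a half-site with any mismatch was missed. RefSeq's table (GRCm38.p6) held 12 such windows for 9 of the 10 genes and none for Cdkn1c. At least 1 match was present in 4 of the 12 windows, each of a different gene (Cdkn1a, Mdm2, Ccng1 and Bax), against 7.13% of 32851 windows in the table. At the upstream of its 2 starts Cdkn1a had 2 matches, and 0.259% of all windows had at least 2. Other bases lie between these 2 matches, and whether any matches form a pair bound by p53 was not tested. The windows of Phlda3, Cdkn1b, Cdkn2a, Cdkn2b and Cdkn2c had no match, and those letters say nothing of sites elsewhere. Of the 4 genes with a match, Cdkn1a and Ccng1 had ratios above 0 in both pairs. Bax was above 0 in the ES pair alone. So was the brighter probe set of Mdm2, at -0.03 in the plain pair, while its dimmer one was above 0 in both. The genes with the highest ratios, Cdkn2b and Phlda3, had no match in this window. The windows of these 6 genes, matched and unmatched, follow in the direction of transcription, 5′ to 3′, to be read side by side. Exact matches to the half-site are in capitals. A half-site with a mismatch stays in lower case, even where it adjoins a capitalised one.
Cdkn1a (chr17:29090729-29090978, plus strand): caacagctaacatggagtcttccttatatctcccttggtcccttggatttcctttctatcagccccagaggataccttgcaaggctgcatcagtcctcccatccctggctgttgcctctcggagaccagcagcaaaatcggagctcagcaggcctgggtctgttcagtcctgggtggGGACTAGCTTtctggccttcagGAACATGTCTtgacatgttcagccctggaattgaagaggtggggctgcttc
Mdm2 (chr10:117710759-117711008, minus strand): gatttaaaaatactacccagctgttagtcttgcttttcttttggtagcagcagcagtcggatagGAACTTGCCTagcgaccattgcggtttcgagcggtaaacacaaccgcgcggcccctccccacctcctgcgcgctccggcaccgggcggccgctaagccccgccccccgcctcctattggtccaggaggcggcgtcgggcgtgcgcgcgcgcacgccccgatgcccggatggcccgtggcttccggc
Ccng1 (chr11:40755287-40755536, minus strand): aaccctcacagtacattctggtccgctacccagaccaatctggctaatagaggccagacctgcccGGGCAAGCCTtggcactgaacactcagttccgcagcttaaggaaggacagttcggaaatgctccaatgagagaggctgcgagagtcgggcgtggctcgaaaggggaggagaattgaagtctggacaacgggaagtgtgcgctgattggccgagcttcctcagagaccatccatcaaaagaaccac
Bax (chr7:45466899-45467148, minus strand): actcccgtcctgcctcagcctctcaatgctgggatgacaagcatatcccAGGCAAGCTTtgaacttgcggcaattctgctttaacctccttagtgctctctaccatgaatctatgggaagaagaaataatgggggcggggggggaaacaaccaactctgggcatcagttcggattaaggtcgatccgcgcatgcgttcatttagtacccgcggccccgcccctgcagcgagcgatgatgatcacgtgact
Phlda3 (chr1:135765835-135766084, plus strand): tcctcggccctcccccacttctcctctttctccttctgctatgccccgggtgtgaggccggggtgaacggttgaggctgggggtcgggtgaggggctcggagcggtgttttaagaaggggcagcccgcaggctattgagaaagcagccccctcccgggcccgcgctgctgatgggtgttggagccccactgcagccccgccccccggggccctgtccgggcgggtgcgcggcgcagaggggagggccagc
Cdkn2b (chr4:89311033-89311282, minus strand): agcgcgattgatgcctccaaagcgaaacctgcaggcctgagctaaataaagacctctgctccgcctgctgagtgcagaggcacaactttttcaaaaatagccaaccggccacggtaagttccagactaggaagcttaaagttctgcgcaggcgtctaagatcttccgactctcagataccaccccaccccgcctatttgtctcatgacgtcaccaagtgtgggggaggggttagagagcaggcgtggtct

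The matches began 73 and 51 bases before the start of Cdkn1a, 186 before that of Mdm2, 185 before that of Ccng1 and 201 before that of Bax. Another motif, the GC box GGGCGG, counted on both strands and bound by Sp1-type factors, was present in 7 of the 12 windows, against 32.7% of all windows. Cdkn2b had none of it, and its neighbour Cdkn2a had 2 at the upstream of its starts and none at the other.

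The transcript of p53 itself, Trp53, was higher on each SACC array than on its control by its 2 brightest probe sets. Its brightest probe set stood at 6.76 and 8.72 on the SACC arrays, against 5.88 and 7.88 on the control arrays. The 2 arrays of the plain pair were thus above those of the ES pair, while the ratios, 0.88 and 0.84, were close. The mean was 0.86 ± 0.16 (SE, n = 2 pairs; limma adjusted p = 0.106). A further probe set had ratios of 0.93 and 0.51. The rest of the 6 probe sets lay below the medians of all arrays, and 1 of them had a mean of the other sign. These dim probe sets had ratios of 0.2 and 0.1, -0.01 and 0.47, 0.15 and -0.08, and 0 and -0.33. In the list of p53 and its regulators, 0 of 12 genes passed the test (1.97% of all genes did). At an unadjusted p under 0.05 in limma, 2 were higher and 0 lower, beside 12.1% and 8.78% of all genes. The medians of the list were 0.22 and -0.06. Mdm4, a partner of Mdm2 that binds p53, had ratios of 0.37 and 0.56, with 1 of its probe sets of the other sign. Ep300, an acetyltransferase and coactivator of p53, had -1.12 and -0.24, the checkpoint kinase Chek2 -0.3 and -0.74, and the damage adaptor Trp53bp1 0.27 and 0.84, with 1 of its 5 probe sets of the other sign.

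Among other known p53 targets both directions occurred. Of 30 listed genes 0 passed the test (1.97% of all genes did), with a smallest limma adjusted p of 0.0507. At an unadjusted p under 0.05 in limma 10 were higher (12.1% of all genes were) and 2 lower (8.78%). Both pairs had ratios above 0 for 18 of the 30, against 30.4% of all genes, and below 0 for 8, against 34.7%, with medians of 0.24 and 0.16.

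The largest was Ddit4, an inhibitor of mTORC1 that low oxygen and stress hormones also induce. It stood at 10.33 and 10.89 on the SACC arrays, against 8.75 and 8.09 on the control arrays (mean ratio 2.19 ± 0.34, SE, n = 2 pairs; limma adjusted p = 0.0833). The receptor gene Eda2r had ratios of 1.69 and 1.4, adenylate kinase Ak1 1.46 and 1.61, and the microtubule-associated Psrc1 1.44 and 1.54. Sesn1, a sestrin that restrains mTORC1, had ratios of -1.65 and -1, the lowest of the list in each pair.

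**Figure D4:**
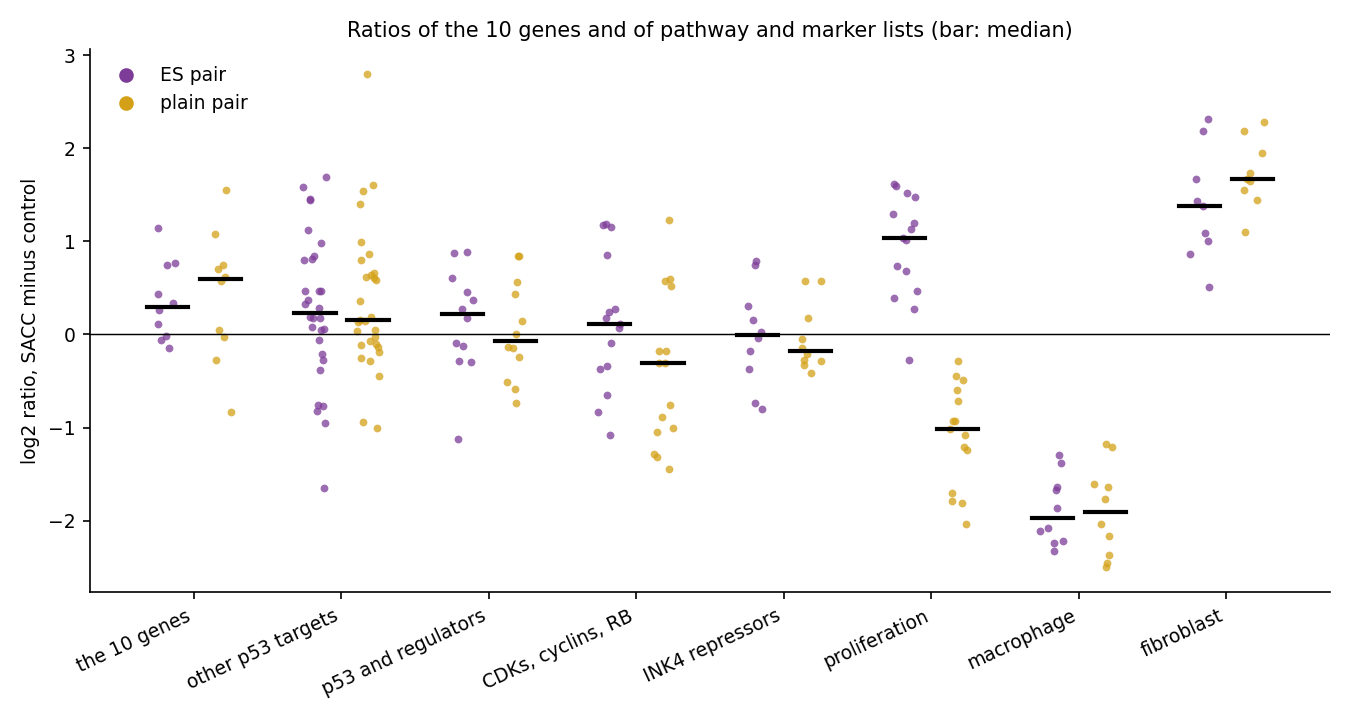
Log2 ratio of SACC minus control for the 10 genes and for lists of related and marker genes, in the ES pair (left column of each group) and the plain pair (right column); each point is a gene and each bar a median. The 10 genes have medians of 0.3 and 0.6, the proliferation markers 1.04 and -1.02, the macrophage markers -1.97 and -1.9 and the fibroblast markers 1.38 and 1.67.

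Kinases, cyclins and RB proteins of the same pathway, listed together with E2F transcription factors, did not share a direction. Of 15 genes 0 passed the test (limma, smallest adjusted p 0.0782), where 1.97% of all genes did. At an unadjusted p under 0.05 in limma, 2 were higher and 4, an E2F factor among them, lower, beside 12.1% and 8.78% of all genes. The medians of the 15 were 0.11 and -0.31. Rb1, the retinoblastoma protein that active CDK4 inactivates, stood at 7.79 and 7.19 on the SACC arrays, against 8.87 and 8.2 on the control arrays. Both SACC arrays were below both controls, which 19.5% of all genes showed, and the mean ratio was -1.04 ± 0.16 (SE, n = 2 pairs; limma adjusted p = 0.0782).

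Among the D-type cyclins, Ccnd1 stood at 9.12 and 8.42 on the SACC arrays, against 9.95 and 9.86 on the control arrays. Ccnd2 (ratios 0.27 and 1.23) and Ccnd3 (0.85 and 0.6) were on the other side of 0, with 1 of the 3 probe sets of Ccnd3 of the other sign. Their partner Cdk4, the kinase that INK4 proteins inhibit, stood at 10.05 and 10.2 on the SACC arrays, against 8.87 and 9.68 on the control arrays (mean ratio 0.85 ± 0.23, SE, n = 2 pairs; limma adjusted p = 0.195).

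Transcripts of Polycomb proteins, several of which repress the INK4 locus in mouse fibroblasts, had ratios on both sides of 0. Of 10 genes 0 passed the test (limma, smallest adjusted p 0.165), where 1.97% of all genes did. At an unadjusted p under 0.05 in limma, 1 was higher and 0 lower, beside 12.1% and 8.78% of all genes. The medians of the 10 were -0.01 and -0.18. The largest were Phc1 (0.79 and 0.58), Ezh1 (-0.74 and -0.27), Cbx7 (-0.8 and -0.15), Rnf2 (0.31 and 0.57) and Ring1 (-0.37 and -0.21), and 1 probe set of Cbx7 had the other sign. Factors that set the level of the Cdkn1b protein or transcript numbered 6, of which 0 passed the test. Of these 6, 1 was higher and 0 lower at an unadjusted p under 0.05 in limma, against the same shares of all genes. Skp1a, a core part of the ligase that degrades the Cdkn1b protein, had ratios of 0.67 and 0.42. The substrate receptor Skp2 had 0.72 and -0.05, and its cofactor Cks1b 0.57 and 0.08. Foxo1, a transcription factor that induces Cdkn1b, had 0.29 and 0.24, and the scaffold Cul1 -0.18 and -0.11. Of the 6 probe sets of Skp2, 2 had the other sign.

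Genes often measured with cell cycle arrest as marks of senescence went both ways. The list was not split by the direction in which a gene moves in senescence, so its counts and medians pool both directions. Of 14 listed, 13 had a probe set with that single symbol, and 2 rose (0.936% of all genes did), Igfbp5 and Mmp3, which encode an IGF-binding protein and a matrix protease and are also made by fibroblasts that divide. The list was written with the high ratio of Igfbp5 known. Igfbp5 stood at 11.13 and 8.93 on the SACC arrays, against 5.04 and 2.64 on the control arrays, the last below its array median of 4.34. Mmp3 stood at 11.91 and 11.12 on the SACC arrays, against 8.08 and 8.06 on the control arrays. Both had a limma adjusted p of 0.0476, and neither passed with arrays centred or without the pair term. At an unadjusted p under 0.05, 7 of the 13 were higher and 1 lower, beside 12.1% and 8.78% of all genes. The medians of the list were 0.68 and 1.61. Both pairs had ratios above 0 for 7 of the 13 (30.4% of all genes) and below 0 for 1 (34.7%). That gene, the collagenase Mmp13, had ratios of -0.94 and -3.58. Igfbp3 had 1.36 and 2.86 and the chemokine Cxcl1 0.56 and 2.76.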

How the data were processed

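Total RNA was labelled as biotinylated cRNA for Affymetrix arrays, per the labels' protocols, on 2 SACC and 2 control arrays. The authors deposited log2 expression values per probe set in 2 tables, each with a SACC array and its control. Per the submitters' processing notes, the tool was Transcriptome Analysis Console. How values were summarised and normalized, and on which genome build, is not given in the sources used here. Sorted values differed by up to 0.14 and 0.2 within a table and by 0.27 to 0.32 across tables, so the tables appear normalized separately and ratios were taken within them. A deposited table of all 4 arrays held identical values. No 2 arrays were duplicates (Pearson's r 0.946 to 0.972).

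Limma 3.58.1 (R 4.3.3) fitted group and pair to all 45037 probe sets with Benjamini-Hochberg adjustment and a threshold of 0.05. It had 1 residual degree of freedom, and each ± is its moderated standard error, drawn toward a prior SD of 0.181. The labels, which name each SACC array's reference, give the pairing; 2 pairs are too few to check it from the data. Within a pair, 2-fold was counted without a test. The number of arrays limits the precision. Symbols are those of the tables: 36109 probe sets had 1 symbol, 1236 several, 7628 none and 64 a date, and only the first kind were named. The members, the lists and the tests were chosen with earlier results of these data known. Named genes were the 10 members, up to 5 genes of each list by size of the mean ratio, and Trp53, Rb1, Mki67, Cdk4, Ccnd1, Csf1r and Col1a1. Alternatives left out the pair term, dim probe sets or single arrays, centred or quantile-normalized the arrays, used limma's trend or robust option or an adjusted p of 0.10, averaged probe sets, or counted at 1.5-fold.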

Additional observations from a re-analysis of the deposited data

Results flagged for a closer look

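For 4 of the 10 genes the SACC array lay on opposite sides of its control in the 2 pairs, and these differences between pairs were not tested, since each pair has 1 array per group. For Cdkn2a the ratios were -0.14 (ES pair) and 0.75 (plain pair). Cdkn1b had -0.06 and 0.57, Mdm2 had 0.26 and -0.03, and Bax had 0.11 and -0.27, in the same order of pairs. The ES pair ratio of Cdkn1b became 0.01 with arrays centred, and the plain pair ratio of Mdm2 became 0.04 with averaged probe sets. Opposite signs were found for 31.4% of all genes.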

How the results depend on the processing

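Of the 10 genes, Cdkn2b, Phlda3, Cdkn1a, Ccng1, Cdkn1c and Cdkn2c kept the sign of their mean ratio under every alternative run, but not its size. Leaving out 1 array moved Ccng1 (0.48 as reported) to 0.06 without control replicate 2, 0.2 without SACC replicate 1, 0.76 without SACC replicate 2 and 0.9 without control replicate 1. It moved Cdkn2c (-0.42) to -0.03 without SACC replicate 2 and -0.82 without SACC replicate 1, and Cdkn1c (0.41) to 0.18 without SACC replicate 1 and 0.64 without SACC replicate 2. The number of members past the test was 0 as reported, 1 with quantile normalization, with probe sets above the median probe set, with averaged probe sets or at an adjusted p of 0.10 (an alternative added after seeing the data), and 2 with robust limma. Over all probe sets the count was 587 as reported, 0 without the pair block (smallest adjusted p in limma 0.16; 3497 with an unadjusted p under 0.05) and 0 with arrays centred (smallest adjusted p in limma 0.0636; 7405 with an unadjusted p under 0.05). It was 2045 with quantile normalization, 1326 among probe sets above the median one, 898 with a trend, 2623 with robust limma and 2188 at an adjusted p of 0.10. Leaving out each array in turn, without the pair block, gave 0 each time (limma; 2264 to 3535 at an unadjusted p under 0.05). List genes past the test numbered 10, or 0 with arrays centred, 22 without dim probe sets and 23 with averaged probe sets, where fewer features were tested. Members past 1.5-fold numbered 3 (ES pair) and 6 (plain pair), against 1 and 2 past 2-fold. Leaving out arrays turned the sign of Cdkn1b (-0.02 without SACC replicate 1, -0.33 without control replicate 2), Mdm2 (-0.19 without control replicate 1, -0.04 without SACC replicate 2), Cdkn2a (-0.1 without SACC replicate 2) and Bax (0.11 without SACC replicate 2). Without the pair block the mean ratio of Cdkn2b ranged from 0.94, without control replicate 2, to 1.76, without control replicate 1. The causes were not tested. By their brightest probe sets all 10 genes lay above the array medians, and the number of arrays limits the precision.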

Other observations

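Levels of some probe sets differed between the pairs in SACCs and controls alike, across tables that appear normalized separately. The dimmer Mdm2 probe set stood at 6.41 (SACC) and 6.4 (control) in the ES pair, and at 8.57 (SACC) and 8.46 (control) in the plain pair. Its brighter probe set differed by only -0.32 between the SACC arrays and -0.61 between the controls, ES minus plain. For Ccng1 the brightest probe set was higher in the ES pair, by 0.56 between SACC arrays and 0.84 between controls. The dimmest of its probe sets differed by -1.01 between SACC arrays and -1.74 between controls. For Cdkn1a the differences were 0.07 (SACC) and 0.33 (control) for the brighter probe set and -0.89 (SACC) and -0.63 (control) for the other. The ratios within a pair had the same sign for all probe sets of Cdkn1a and Ccng1, while their levels could not be ordered between the pairs.

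Markers of further cell types were at low levels or mixed. Neutrophil markers had a summed linear level of 822 and 2168 on the SACC arrays, against 111 and 3989 on the control arrays, with 4 of 5 genes higher in SACCs of the ES pair and lower in those of the plain pair. T cell markers summed to 152 and 122 in SACCs, against 173 and 149 in controls. B cell markers summed to 68 and 62 in SACCs, against 72 and 71 in controls, and endothelial markers to 227 and 140 in SACCs, against 136 and 169 in controls. Erythroid markers, with 3 of 4 listed genes measured, summed to 33 and 43 in SACCs, against 43 and 49 in controls. Mesothelial markers, led by Wt1, summed to 473 and 333 in SACCs, against 66 and 86 in controls. Of these 4 genes, 3 were higher in both pairs (30.4% of all genes), among them Wt1 (3.84 and 2.63) and Upk3b (2.94 and 0.86). Msln was lower in both (-0.93 and -0.03). Among the 4, 2 lay below the medians of all arrays. None of the genes on these 6 lists passed limma's test, where 1.97% of all genes did. At an unadjusted p under 0.05 in limma, 2 mesothelial genes were higher and 1 T cell gene lower, beside 12.1% and 8.78% of all genes.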
